A study of Homo sapiens with 6 samples.

Results

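Genes of replication licensing, of the replication fork, and of the cyclins, cyclin-dependent kinases and their regulators were described here as carriers of G-quadruplex (G4) peaks. A gene belonged to the group by its symbol alone. MCM, ORC, CDC, CDK or E2F with a number and at most 1 letter after it, CCN with a letter and at most a number after it, and all symbols that begin with GINS, POLD, POLE, POLA or RRM were taken, which gave 112 of 19821 protein-coding genes (autosomes and X). A gene is called marked when a peak lay within 1 kb of either of its ends. The peaks are from ChIP-seq, the sequencing of immunoprecipitated chromatin, with the G4 antibody BG4 in U2OS, a human osteosarcoma line. One group of cells was untreated (Ctrl) and the other had been given 1,6-hexanediol (HD), an alcohol that dissolves many condensates. Both came from the same line, were fixed in formaldehyde at 1% for 10 min, and gave 2 ChIP libraries and 1 input library each, 6 in all. The sources used here give neither dose nor time of hexanediol.

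One peak list per condition was analysed, so values carry no error between replicates, and none of the differences between Ctrl and HD could be tested. Every one of the 2269 peak names in the HD list carries the number of replicate 1, and it is not known here whether replicate 2 contributed. ChIP fragments at each summit were recovered from the fold and p of the peak caller. Fold is ChIP over the caller's expectation from input, and −log10 q its adjusted p on a log scale, both as the authors deposited them. Depth derived from fold and p was 19602 fragments per Mb in Ctrl and 27538 in HD, a ratio of 1.40. Intervals on fragment numbers are exact 95% Poisson intervals, those on shares are exact binomial (Clopper-Pearson) intervals, and both cover counting error only.

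Origins of replication are licensed when the origin recognition complex (ORC) and CDC6 load the MCM2-7 ring onto DNA. Kinases then turn that ring into the active helicase with CDC45 and the GINS complex, and polymerases alpha, delta and epsilon copy the strands. E2F factors drive transcription of many of these genes, cyclins and their kinases time the steps, and the anaphase-promoting complex ends them by ubiquitylation. A G4 forms where 4 runs of guanines on a single strand stack, and guanine-rich promoters are the class of site for which BG4 maps are best known.

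In untreated cells 24 of the 112 members were marked (21.4%, 14.2 to 30.2), against 10.9% of all protein-coding genes. After hexanediol 13 were marked (11.6%, 6.33 to 19.0), against 8.11%. Both lists marked 8 members (7.14%, 3.13 to 13.6, background 5.20%). A further 16 were marked in the Ctrl list only (14.3%, 8.39 to 22.2, background 5.70%). In the HD list only 5 were marked (4.46%, 1.47 to 10.1, background 2.92%). The intervals for HD, for both lists and for the HD list only include the background. With the same number of peaks from both lists the 16 became 9 (background 3.62%), and with each peak given only its nearest gene the 5 became 3 (background 2.55%). The other 83 members had no peak within 1 kb of an end in either list. Of the 24 members with a Ctrl peak, 33.3% (15.6 to 55.3) also had an HD peak. The same share over all 2160 genes with a Ctrl peak was 47.7%, which lies inside that interval. Of the 13 members with an HD peak, 61.5% (31.6 to 86.1) also had a Ctrl peak, and the share over all genes with an HD peak was 64.1%. With both lists limited to their 2172 peaks of highest −log10 q, the Ctrl count was 16 members (14.3%, background 7.83%) against 13 in HD.

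Counts by role are a description, since the roles were assigned after the peaks were seen and no difference between them was tested. Members of the replication and cell cycle roles numbered 73, of which 20 were marked in Ctrl (27.4%, 17.6 to 39.1) and 12 in HD (16.4%, 8.79 to 27.0). The 73 are not a strict set, as they hold MCM8 and MCM9 of a separate repair helicase and CDC20B, a relative of CDC20. The other 39 are cyclins and kinases of transcription and other processes, and genes of other roles taken in by their symbol. Of these, 4 were marked in Ctrl (10.3%, 2.87 to 24.2) and 1 in HD (2.56%, 0.0649 to 13.5), and the intervals overlap those of the 73. Licensing genes had 5 of 13 members marked in Ctrl (38.5%, 13.9 to 68.4) and 3 in HD (23.1%, 5.04 to 53.8). The shares of all genes were 10.9% and 8.11%. With each peak given only its nearest gene, ORC4 and MCM7 in Ctrl and ORC6 in HD were no longer marked. Phosphatases and ubiquitin ligase subunits had 3 of 13 in each list with none in common, a share of 0 of 3 with an interval of 0 to 70.8% that includes the 47.7% of all genes. None of the 6 cell cycle kinases CDK1, CDK2, CDK3, CDK4, CDK6 and CDK7 was marked, a count of 0 that with 6 genes allows a share of up to 45.9%.

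**Figure D1:**
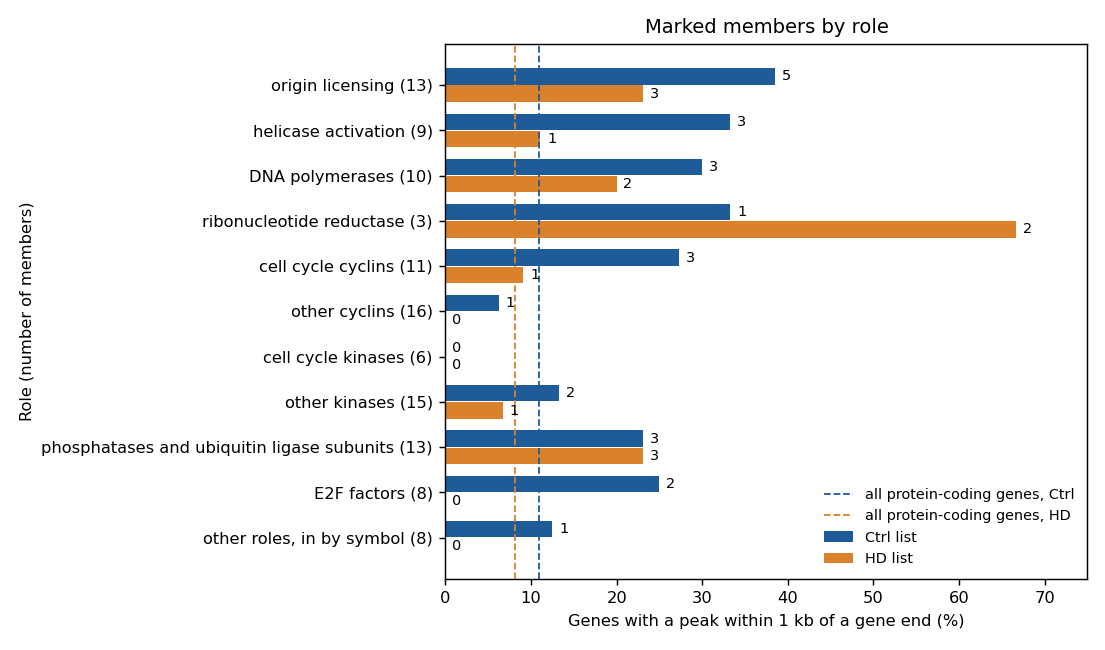
Bars give the share of genes with a peak within 1 kb of a gene end, in percent, for each role and list, and the number at the end of a bar is the count of marked members. Dashed lines are the shares of all protein-coding genes (10.9% in Ctrl and 8.11% in HD). The role of helicase activation also holds MCM8 and MCM9. Licensing genes reach 38.5% in Ctrl (interval 13.9 to 68.4), with MCM7 and ORC4 included, which lose their mark with 1 gene per peak. The 6 cell cycle kinases are at 0, with an interval up to 45.9%.

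The sequences below show what lies under 5 of these peaks. Members were considered if a peak touched a matched RefSeq promoter window and had its summit outside the gene. Shown are promoters of the 4 with the highest −log10 q in either list, and of MCM10, the replication initiation factor that recruits polymerase alpha. For this order the values of both lists were ranked together. POLD2, with −log10 q of 18.5 in Ctrl and 17.3 in HD, had its summits inside the gene and is not shown. MCM5 and RRM2B had no matched window. Each is the 250 bases before the transcription start, 5′ to 3′ on the strand of the gene, from RefSeq on GRCh38.p14. Capitals mark every run of at least 3 G or 3 C. CCNT2 lies at chr2:134918572-134918821 (plus strand), CCNF at chr16:2429197-2429446 (plus), CCNE1 at chr19:29811741-29811990 (plus), CDC6 at chr17:40287629-40287878 (plus) and MCM10 at chr10:13161308-13161557 (plus).
CCNT2: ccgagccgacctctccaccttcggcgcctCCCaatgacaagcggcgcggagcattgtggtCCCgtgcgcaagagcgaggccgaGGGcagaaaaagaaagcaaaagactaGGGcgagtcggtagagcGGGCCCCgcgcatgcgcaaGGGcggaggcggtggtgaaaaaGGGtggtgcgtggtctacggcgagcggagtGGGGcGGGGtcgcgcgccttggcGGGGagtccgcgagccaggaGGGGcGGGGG
CCNF: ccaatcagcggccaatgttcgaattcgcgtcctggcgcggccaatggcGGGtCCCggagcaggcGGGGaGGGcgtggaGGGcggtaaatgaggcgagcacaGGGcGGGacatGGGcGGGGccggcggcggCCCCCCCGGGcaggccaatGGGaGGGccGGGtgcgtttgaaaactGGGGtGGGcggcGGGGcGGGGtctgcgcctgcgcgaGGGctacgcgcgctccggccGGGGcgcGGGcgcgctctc
CCNE1: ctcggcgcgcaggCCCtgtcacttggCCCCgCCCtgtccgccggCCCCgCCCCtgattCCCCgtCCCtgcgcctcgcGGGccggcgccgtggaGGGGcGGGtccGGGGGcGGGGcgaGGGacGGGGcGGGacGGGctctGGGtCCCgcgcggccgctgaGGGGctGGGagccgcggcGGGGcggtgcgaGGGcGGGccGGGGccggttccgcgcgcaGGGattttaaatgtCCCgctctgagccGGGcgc
CDC6: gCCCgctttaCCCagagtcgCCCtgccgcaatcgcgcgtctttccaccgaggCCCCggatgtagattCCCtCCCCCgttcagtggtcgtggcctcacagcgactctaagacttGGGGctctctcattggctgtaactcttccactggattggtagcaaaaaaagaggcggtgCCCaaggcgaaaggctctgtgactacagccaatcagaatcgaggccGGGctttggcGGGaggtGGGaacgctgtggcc
MCM10: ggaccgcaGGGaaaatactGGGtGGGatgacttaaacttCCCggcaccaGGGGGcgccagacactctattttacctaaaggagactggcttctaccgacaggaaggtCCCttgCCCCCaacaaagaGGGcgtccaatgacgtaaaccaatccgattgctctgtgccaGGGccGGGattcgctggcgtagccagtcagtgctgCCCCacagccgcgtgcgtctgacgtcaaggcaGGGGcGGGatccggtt

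The 5 promoters differ in how guanine is laid out. CCNE1 holds 18 runs of G and 9 of C, with 81.2% G and C, and CCNF holds 19 and 2, with 76.0%. A search was made on both strands for the classic G4 motif, 4 or more runs of GGG with loops of 1 to 7 bases. CCNE1 held 2 such motifs, one of 23 bases on the opposite strand from position -206 to -184 and one of 49 bases on the strand of the gene from -157 to -109, counted back from the transcription start. CCNF held 2 on the strand of the gene, from -149 to -131 and from -75 to -55. CCNT2 with 10 runs of G, CDC6 with 4 and MCM10 with 9 held none, with loops of up to 7 or of up to 12 bases. CDC6 and MCM10 were the promoters of lower GC content, at 60.0% and 59.6%. The Ctrl peak covered all 250 bases at CCNT2, 222 at CCNE1, 227 at CDC6 and 237 at MCM10, and the HD peak covered 214 at CCNF.

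Across the members the G4 motif had similar shares, with overlapping intervals, in promoters with and without a peak. RefSeq promoter windows of 300 bases, 250 before the start and 50 after it, were matched for 100 of the 112 members and for 15812 of all protein-coding genes, with 1 window per gene. The motif lay in 8 of 26 windows of marked members (30.8%, 14.3 to 51.8), in 19 of 74 windows of unmarked members (25.7%, 16.2 to 37.2) and in 30.1% of all windows. Over all genes the shares were 37.0% with a Ctrl peak, 36.5% with an HD peak and 29.1% without a peak. Members whose peak itself covered a motif in one of their windows were CCNE1, CCNF, MCM7, ORC4 and POLDIP2 in Ctrl (5 of 19 peaks that touched a window) and CCNF in HD (1 of 8). Windows differ from peaks in extent, so a peak without a motif here can hold one outside the window.

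Letters bound by regulators of these genes were searched in the same windows, on both strands. E2F sites, as TTTCCCGC or TTTGGCGC, lay in 22 of 100 member windows (22.0%, 14.3 to 31.4) and in 3.05% of all windows. Among marked members the share was 26.9% (7 of 26) and among unmarked ones 20.3% (15 of 74), with overlapping intervals of 11.6 to 47.8 and 11.8 to 31.2. Of the 7, CDK11B, POLE4, CDC25A, CDC23, MCM3 and MCM7 were marked in Ctrl only and CDC6 in both lists. With the same number of peaks from each list CDK11B, POLE4, CDC23, MCM3 and MCM7 were no longer marked. The peak itself covered E2F letters at CDC6 and MCM3 in Ctrl (2 of 19 peaks that touched a window). In HD it did so at CDC6 (1 of 8). CCAAT, the box bound by the factor NF-Y, lay in 19 of 26 windows of marked members (73.1%, 52.2 to 88.4), in 30 of 74 of unmarked members (40.5%, 29.3 to 52.6) and in 36.4% of all windows. The first 2 intervals just overlap, and the difference was not tested. Over all genes CCAAT lay in 49.0% of windows of genes with a Ctrl peak and in 34.3% of those without a peak. TTTGAA, the cell cycle homology region (CHR) of late cell cycle genes, lay in 2 of 26 windows of marked members (7.69%), namely CCNF and CDC20, and in 12.2% of all windows. A match is a description of letters and not a bound site.

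**Figure D2:**
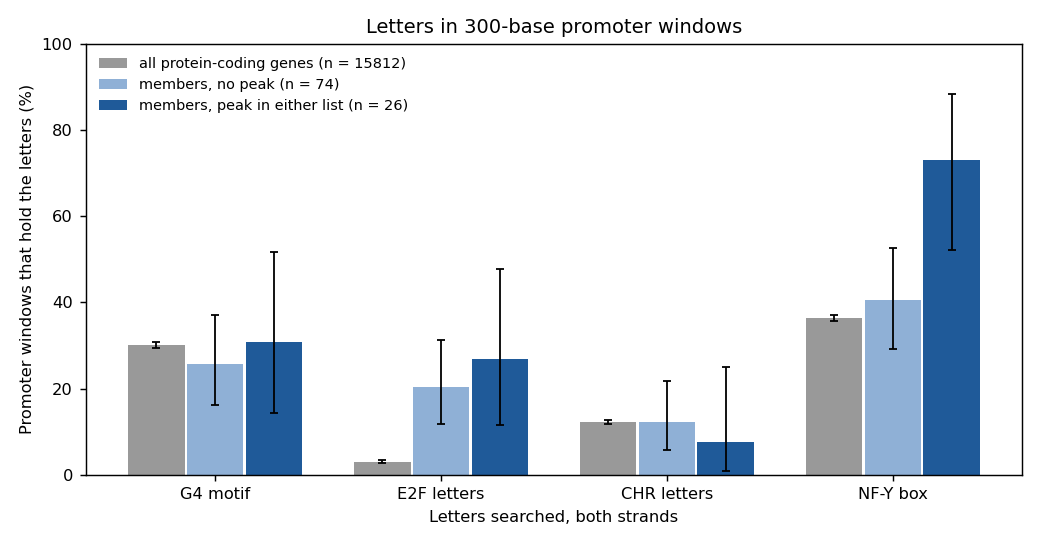
Bars give the percentage of promoter windows that hold each set of letters, with exact 95% binomial intervals, for all protein-coding genes (15812), unmarked members (74) and members marked in either list (26). E2F letters are at 22.0% over all member windows against 3.05% of all windows, and the G4 motif is near 30% in marked members and in all genes.

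Peaks at members sat at the transcription start and mostly just before it. All 21 Ctrl peaks and all 10 HD peaks at members with a known strand were at the start of the gene and none at its far end. Over all pairs of a peak and a marked gene with a window, the start was the marked end for 94.9% (Ctrl) and 93.2% (HD). The summit lay upstream of the nearest RefSeq start for 19 of the 21 Ctrl peaks, 18 of them within 250 bp, with a median position of -119 bp. In HD 8 of 10 lay upstream, with a median of -140 bp. Over all such pairs of peak and gene 83.5% of Ctrl and 82.3% of HD summits lay upstream, with medians of -104 and -114 bp. CDK13 was the farthest upstream, at -587 bp (Ctrl) and -546 bp (HD). The 4 summits downstream of the start were those of E2F6 at 41 bp and POLE4 at 183 bp in Ctrl, and of RRM2 at 66 bp and CDC25C at 368 bp in HD.

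**Figure D3:**
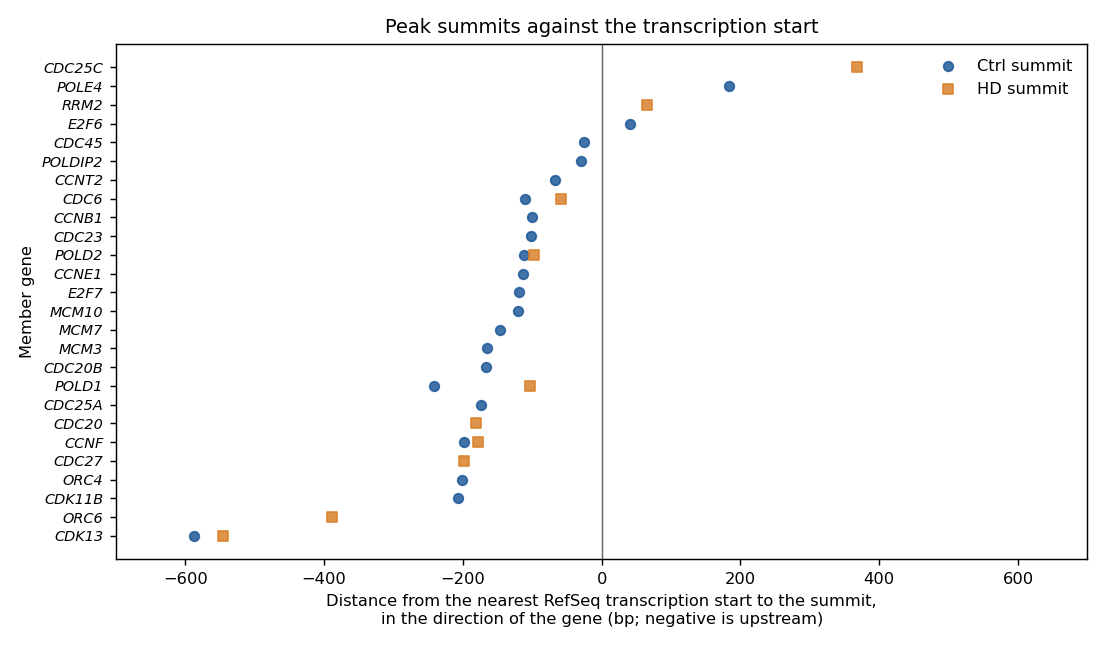
Points give the position of the peak summit relative to the nearest RefSeq transcription start, in bp along the direction of the gene, for each marked member with a known strand (Ctrl circles, HD squares). Most points lie in the 250 bp before the start, and CDK13 stands apart near -587 and -546 in the 2 lists.

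Among licensing genes MCM5 and CDC6 were marked in both lists. MCM5, a subunit of the replicative helicase (gene ID 4174), had 49 Ctrl fragments (36.3 to 64.8) at chr22:35399933-35400217 and 66 HD fragments (51.0 to 84.0) at chr22:35399881-35400244. Divided by the depth ratio, the HD number was 0.959 times the Ctrl number (0.653 to 1.42). Fold was 4.22 in Ctrl and 4.29 in HD, with −log10 q of 11.7 and 12.6. The caller's input expectation at MCM5 was 2.89 times the genome-wide one in Ctrl and 2.60 times in HD, and its fold was near the middle of each list (percentiles 52.8 and 60.9). CDC6, the loader of the MCM ring (gene ID 990), had 32 fragments (21.9 to 45.2) at chr17:40287652-40287930 in Ctrl and 40 (28.6 to 54.5) at chr17:40287597-40287911 in HD, 0.890 times per depth (0.545 to 1.46). CDC6 had folds of 5.32 and 4.48 and −log10 q of 9.83 and 7.42. Neither interval excludes equality per depth.

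The other marked licensing genes appeared in 1 list each. ORC4, a subunit of the origin recognition complex, had 23 Ctrl fragments (14.6 to 34.5) at chr2:148020752-148021038, with −log10 q of 6.60, in a peak that also touched MBD5. MCM3 had 28 and MCM7 had 17 Ctrl fragments, and the MCM7 peak also touched AP4M1. ORC6, the smallest ORC subunit, had 31 HD fragments (21.1 to 44.0) at chr16:46689138-46689662 with a fold of 4.69 and −log10 q of 6.27, and shared the peak with VPS35. At ORC4, MCM7 and ORC6 the summit was nearer to the end of the partner gene, and none of these 3 marks remained when a peak was allowed only its nearest gene. ORC1, ORC2, ORC3, ORC5, MCM2, MCM4 and MCM6 had no peak.

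Of 9 genes, 7 of helicase activation and MCM8 and MCM9 of a separate repair helicase, 3 were marked in Ctrl (33.3%, 7.49 to 70.1, background 10.9%). In HD 1 was marked (11.1%, 0.281 to 48.2, background 8.11%). GINS4, a subunit of the GINS complex, had 28 fragments (18.6 to 40.5) in Ctrl at chr8:41528944-41529245 and 30 (20.2 to 42.8) in HD at chr8:41529000-41529230, 0.763 times per depth (0.440 to 1.32). Its folds were 6.04 and 4.54, and −log10 q was 9.78 and 5.56. MCM10 (gene ID 55388) had 25 (16.2 to 36.9) in Ctrl only, at chr10:13161321-13161570, with a fold of 5.41 and −log10 q of 8.15. CDC45 had 32 (21.9 to 45.2) in Ctrl only, at chr22:19479711-19479920, with the summit 335 bp inside the gene end and 25 bp upstream of an inner RefSeq start, in a peak shared with UFD1. Fold at CDC45 was 4.27 and −log10 q 7.23, and the input expectation was 1.78 times the genome-wide one. At MCM10 the nearest HD peak was 1032 kb away, and at CDC45 375 kb. CDC7, the kinase that acts with DBF4, and GINS1, GINS2, GINS3, MCM8 and MCM9 had no peak.

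Polymerase delta carried the strongest of the polymerase peaks. POLD2, its accessory subunit, had 44 fragments (32.0 to 59.1) in Ctrl at chr7:44123440-44123874 and 64 (49.3 to 81.7) in HD at chr7:44123508-44123865, 1.04 times per depth (0.694 to 1.56). Its folds of 6.96 and 5.84 were at percentiles 98.0 and 95.6, with −log10 q of 18.5 and 17.3. The summits lay 665 and 679 bp inside the gene end, just upstream of an inner RefSeq start. POLD1, the catalytic subunit, had 19 (11.4 to 29.7) at chr19:50383995-50384212 in Ctrl and 34 (23.5 to 47.5) at chr19:50384096-50384603 in HD, 1.27 times per depth (0.706 to 2.36). Fold was 4.17 and 5.02 there, and −log10 q 3.82 and 7.53. POLD1 was the member in both lists with the fewest Ctrl fragments, its HD peak was the wider one, and both peaks also touched NR1H2. POLE4, a histone-fold subunit of polymerase epsilon, had 21 fragments in Ctrl only. POLA1, POLA2, POLD3, POLD4, POLE, POLE2 and POLE3 had no peak.

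Ribonucleotide reductase makes the deoxynucleotides that polymerases use, and 2 of its 3 genes were marked. In Ctrl 1 was marked (33.3%, 0.840 to 90.6, background 10.9%) and in HD 2 (66.7%, 9.43 to 99.2, background 8.11%). RRM2B, the small subunit induced by p53, had 40 fragments (28.6 to 54.5) in Ctrl at chr8:102238843-102239694 and 57 (43.2 to 73.9) in HD at chr8:102238916-102239589, 1.01 times per depth (0.665 to 1.56). It had the highest fold of all members, 7.61 in Ctrl and 6.95 in HD, at percentiles 99.1 and 99.3, with −log10 q of 19.0 and 18.4. RRM2, the small subunit of S phase, had 33 HD fragments (22.7 to 46.3) at chr2:10122552-10122751, with a fold of 4.08 and −log10 q of 5.09, and the nearest Ctrl peak was 320 kb away. RRM1, the large subunit, had none.

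Cell cycle cyclins were marked at 3 of 11 members in Ctrl (27.3%, 6.02 to 61.0, background 10.9%) and 1 in HD (9.09%, 0.230 to 41.3, background 8.11%). Both intervals include the background. CCNF, a cyclin that serves as substrate receptor of a ubiquitin ligase, had 30 fragments (20.2 to 42.8) in Ctrl at chr16:2429131-2429412 and 46 (33.7 to 61.4) in HD at chr16:2429132-2429410, 1.09 times per depth (0.674 to 1.79). Folds at CCNF were 5.39 and 5.13 and −log10 q was 9.23 and 10.3. CCNE1, cyclin E1 of the G1/S step (gene ID 898), had 35 (24.4 to 48.7) in Ctrl only, at chr19:29811748-29811969, with the nearest HD peak 32.7 kb away. Its fold was 4.89 and −log10 q 9.87, with an input expectation 1.68 times the genome-wide one. CCNB1, the mitotic cyclin B1, had 21 in Ctrl only. CCNA1, CCNA2, CCNB2, CCNB3, CCND1, CCND2, CCND3 and CCNE2 were unmarked. Among the 16 other cyclins only CCNT2, a cyclin of the elongation factor P-TEFb, was marked, with 35 Ctrl fragments (24.4 to 48.7) at chr2:134918540-134918908 and a fold of 6.81 with −log10 q of 14.6, both the highest of the members in the Ctrl list only.

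Of the 15 kinases outside the core cell cycle, CDK13 and CDK11B were marked. CDK13, a kinase of the RNA polymerase II tail that works with cyclin K, had 42 fragments (30.3 to 56.8) in Ctrl at chr7:39949395-39949840 and 41 (29.4 to 55.6) in HD at chr7:39949580-39949803. Divided by the depth ratio, the HD number was 0.695 times the Ctrl number (0.441 to 1.09), the lowest ratio of the 8 members in both lists. Without that division it was 0.976 times. The Ctrl numbers of CDK13 and of GINS4, the next lowest at 0.763, each had more than 1 match. The folds of 4.99 and 3.03 were at percentiles 76.3 and 19.5, with −log10 q of 3.75 in HD, and the input expectation was 2.02 and 2.28 times the genome-wide one. CDK11B had 16 Ctrl fragments, the fewest of any member. It has a near-identical neighbour, CDK11A, and reads that fit both copies cannot be told apart here.

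Of the 13 phosphatases and ubiquitin ligase subunits, 3 were marked in each list (23.1%, 5.04 to 53.8, background 10.9% in Ctrl and 8.11% in HD). By other windows the lists shared a gene, CDC20 with 5 kb and CDC25C around RefSeq starts. In Ctrl the first of 3 was CDC25A, the phosphatase that activates CDK2, with 38 fragments (26.9 to 52.2) at chr3:48188479-48188705, a fold of 3.29 and −log10 q of 5.85. CDC20B, a relative of CDC20, had 30 (20.2 to 42.8) at chr5:55173188-55173437, a fold of 5.17 and −log10 q of 8.73. CDC23, a subunit of the anaphase-promoting complex, had 18. In HD the complex was represented by its activator CDC20 and its subunit CDC27. CDC20 had 38 fragments (26.9 to 52.2) at chr1:43358684-43358936, a fold of 3.93 and −log10 q of 5.90. CDC27 had 30 (20.2 to 42.8) at chr17:47189280-47189588, a fold of 4.09 and −log10 q of 4.66. CDC25C, the phosphatase that activates CDK1, had 24 (15.4 to 35.7) in HD at chr5:138337763-138338008, a fold of 3.68 and the lowest −log10 q of the 13 members marked in HD. The CDC25C peak also touched FAM53C, and the CDC27 peak touched MYL4, to whose end its summit was nearer. The input expectation at CDC25A was 2.89 times the genome-wide one, and its fold was the lowest of the members marked in Ctrl. CDC25C also held a Ctrl peak of 27 fragments at chr5:138331830-138332064, within 1 kb of an inner RefSeq start and 6.29 kb from the gene end, so counted by RefSeq starts it was marked in both lists.

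Of the 8 E2F factors, 2 were marked in Ctrl (25.0%, 3.19 to 65.1, background 10.9%) and none in HD (interval 0 to 36.9%, background 8.11%). E2F6, which acts with Polycomb proteins, had 25 fragments (16.2 to 36.9) at chr2:11466050-11466263, a fold of 4.19 and −log10 q of 5.59. E2F7, an atypical E2F, had 20 (12.2 to 30.9) at chr12:77065605-77065820, a fold of 4.38 and −log10 q of 4.47. E2F1, E2F2 and E2F3, known as activators, and E2F4, E2F5 and E2F8, known as repressors, were unmarked. POLDIP2, a protein that binds polymerase delta, was the only marked gene of the 8 with other roles, with 32 Ctrl fragments (21.9 to 45.2) at chr17:28357422-28357626 in a peak shared with VMA12, a fold of 5.11 and −log10 q of 9.34. CDC5L, CDC37, CDC40, CDC42, CDC73, CDC123 and POLDIP3 had no peak.

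**Figure D4:**
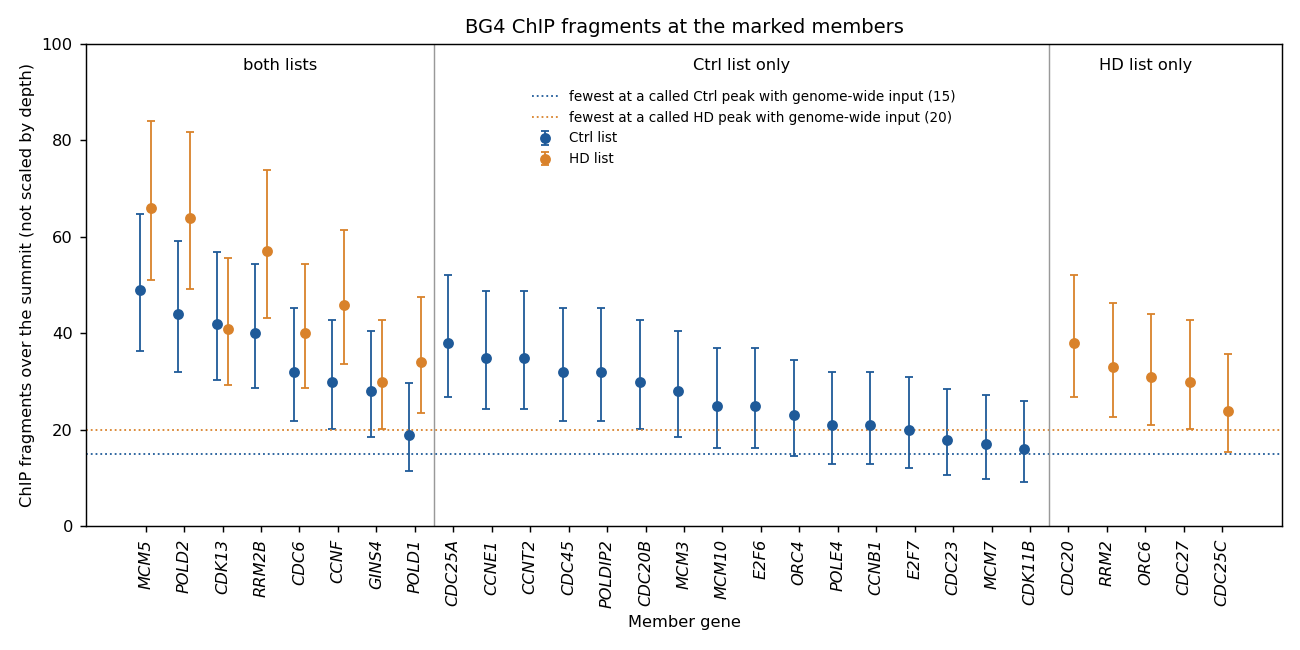
Points give the ChIP fragments over the summit at each of the 29 marked members, not scaled by depth, with exact 95% Poisson intervals (Ctrl blue, HD orange). Dotted lines give the fewest fragments at a called peak whose input expectation was the genome-wide one (15 in Ctrl and 20 in HD). MCM5 has the highest number in both lists, 49 and 66.

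At each of the 8 members in both lists the fragment numbers differed by less than counting error once depth was taken into account. These 8 had to be called in both lists, so a member called in only 1 list cannot be among them. Their ratios therefore do not describe the group as a whole. HD over Ctrl per depth ran from 0.695 at CDK13 to 1.27 at POLD1 with a median of 0.987, and 4 of 8 were below 1. Over all 1030 genes marked in both lists the median was 0.931, and 65.0% were below 1. The interval included 1 for every one of the 8 members. Without the depth ratio the median of the members was 1.39. The peaks of the lists overlapped at all 8, and their summits were a median of 45.0 bp apart, against 47.0 bp over all genes in both lists.

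**Figure D5:**
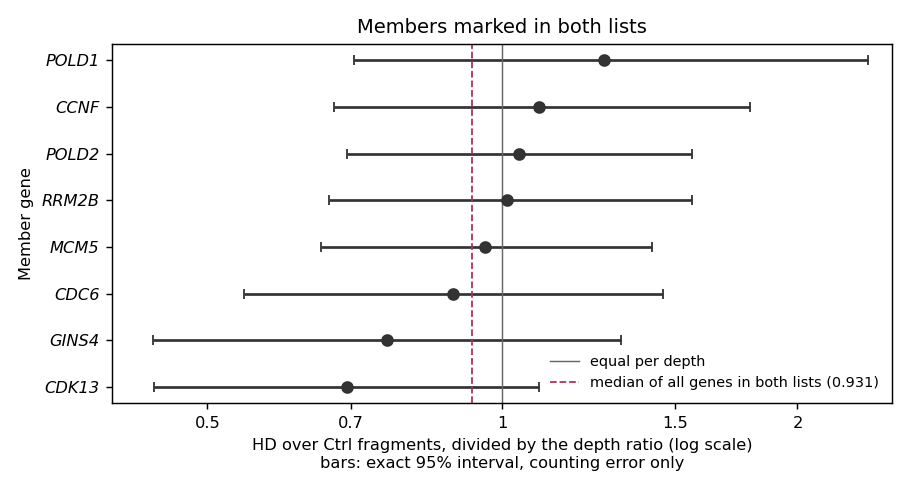
Points give HD over Ctrl fragments at the 8 members marked in both lists, divided by the depth ratio of 1.40, on a log axis, with exact 95% intervals for counting error. The dashed line is the median of all genes in both lists (0.931). All 8 intervals cross 1.

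Members in both lists had higher median fragments and folds than members in 1 list, with overlapping ranges. The grouping itself rests on calls made from these values, so the difference is a description and not a separate result. In Ctrl their fragments had a lowest, median and highest value of 19, 36.0 and 49, against 16, 25.0 and 38 for the 16 members in the Ctrl list only. Their median fold was at percentile 85.1 against 53.4. Over all genes the same percentiles were 69.0 and 58.0. CCNT2, in Ctrl only, had a fold above those of CDC6, CCNF, CDK13, GINS4, MCM5 and POLD1. In HD the median percentiles were 77.2 and 52.3, although CDK13, in both lists, had the lowest fold of the 13. In HD the 8 ran from 30 to 66 with a median of 43.5, and the 5 in the HD list only from 24 to 38 with a median of 31.0. The 6 members in the Ctrl list only that were not described by position (CCNB1, POLE4, MCM3, CDC23, MCM7 and CDK11B) had 16 to 28 fragments and folds of 3.35 to 4.09.

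Where a list has no peak, the signal is unknown rather than 0. At equal signal and HD depth the 16 members in the Ctrl list only would have had 22.5 to 53.4 fragments, and the lowest number called in HD at the genome-wide input expectation was 20. CDK11B (22.5) and MCM7 (23.9) were nearest to that number, whereas CDC25A (53.4), CCNE1 and CCNT2 (49.2 each) were farthest above it. However, the Ctrl input expectation was 2.89 times the genome-wide one at CDC25A, 1.68 times at CCNE1 and 1.13 times at CCNT2. At CDC25A and CCNE1 the distance from 20 therefore overstates the margin over a call. For the 5 members in the HD list only, the numbers at Ctrl depth would have been 17.1 to 27.0, and the lowest called there was 15. A higher local input raises the number needed, and input at sites without a call was not analysed here.

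Genes of the same pathways outside the symbol rule were read from a written list of 71. In Ctrl 18 were marked (25.4%, 15.8 to 37.1, background 10.9%) and in HD 15 (21.1%, 12.3 to 32.4, background 8.11%). Of the 18, 12 (66.7%, 41.0 to 86.7) were also marked in HD, an interval that includes the 47.7% of all genes. These were PCNA, the sliding clamp, with 30 and 45 fragments, TIPIN of the fork protection complex with 29 and 58, TK1, thymidine kinase, with 33 and 45, the kinase WEE1 with 29 and 39, and CKS2, DTL, LIG1, LIN52, LIN54, RECQL4, SKP2 and TYMS. Fragment numbers of the listed genes are given without scaling by depth. At equal signal and HD depth the Ctrl numbers would be 42.1 at PCNA, 40.7 at TIPIN, 46.4 at TK1 and 40.7 at WEE1. TYMS, thymidylate synthase, had 2 Ctrl peaks of 25 and 34 fragments and 1 HD peak of 38. AURKA, ANAPC11, DDB1, DONSON, TICRR and WDHD1 were marked in Ctrl only, with 20 to 31 fragments. In HD only these were the mitotic kinase gene BUB1, LIN37 and RFC2, with 30 to 37. Most of these peaks also touched a neighbour, such as CDS2 at PCNA, MAP2K1 at TIPIN and AFMID at TK1. Among the members this held for 5 of 24 Ctrl peaks and 4 of 13 HD peaks. Counts with 1 gene per peak were not made for the list of 71. The shares found again in HD, 66.7% here and 33.3% among the members, have overlapping intervals, and their difference was not tested.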

How the data were processed

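BG4 ChIP-seq libraries of U2OS cells, untreated or treated with 1,6-hexanediol, were processed by the submitters with MACS2 2.2.7.1 after Bowtie2 2.5.0 alignment to hg38, with SAMtools and FastQC 0.11.9 also named, per the submitters' processing notes. No settings and no duplicate removal are given there. The authors deposited 1 peak list per condition (3507 Ctrl and 2269 HD peaks), with a fold over local background (a ratio), −log10 p and −log10 q per peak, a whole-number score, which is 10 times −log10 q and was not used, and a summit. Fold, −log10 p and −log10 q are the authors' deposited values. Fold and −log10 q were used to describe, rank and filter peaks, −log10 q also to order members for the sequences shown, and fold and p to recover fragment numbers.

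Fragment numbers were recovered from fold, (pileup + 1) / (expectation + 1), and p, the upper Poisson tail, as a whole number times a scale (0.927 in Ctrl, 0.715 in HD). They matched −log10 p within 0.01 for 3501 and 2262 peaks. For 173 and 93 peaks more than 1 number matched and the closest was taken; CDK13 and GINS4 in Ctrl are among them. The step was tested on simulated data. Depth followed from the genome-wide expectation and a fragment length of 191 bp (Ctrl) and 200 bp (HD).

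Genes came from RefSeq on GRCh38.p14, without 831 genes off the chromosomes. Overlap was 1 bp. No test was made, since each condition has 1 list. Members, lists and roles were chosen with earlier results of these data known. All marked members are named, with positions for those in both lists and for the 10 Ctrl-only and all HD-only members by −log10 q. Python 3.11.15, scipy 1.17.1 and pandas 2.3.3 were used.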

Additional observations from a re-analysis of the deposited data

How the results depend on the processing

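The counts of marked members were recomputed with windows of 500 bp and 5 kb, with −log10 q of at least 3, with the same number of peaks from each list, by summit, with 1 gene per peak, and, chosen after seeing the data, around RefSeq starts and without members of other roles. The Ctrl count ran from 16 to 27 and the HD count from 10 to 14. These counts do not all rest on 112 members. The HD count of 10 was made around RefSeq starts, for the 100 members with a promoter window. No HD member with a window lost its mark in that setting. The count without members of other roles covered 73 members. With the same number of peaks from each list, members in the Ctrl list only numbered 9 in place of 16, since CCNB1, CDC23, CDK11B, E2F7, MCM3, MCM7 and POLE4 have Ctrl peaks of low −log10 q, and POLD1 became a member of the HD list only. With 1 gene per peak, members in the HD list only numbered 3 in place of 5, without CDC27 and ORC6. With no depth scaling, the median HD to Ctrl ratio at members in both lists was 1.39. The G4 motif lay in 27 of 100 member windows with loops of up to 7 bases and in 40 with loops of up to 12, against 30.1% and 45.1% of all windows. No paired analysis was possible because each condition has 1 peak list and no value per library.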

Other observations

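Some members without a mark had a peak nearby or inside, and those named here were chosen after their values were seen. The nearest was CDK2, the kinase of cyclins E and A, with a Ctrl peak of 17 fragments 1.05 kb from its gene end at chr12:55973840-55974137, just outside the window. CCND1, cyclin D1, held a Ctrl peak of 21 fragments inside the gene, 3.05 kb from an end, at chr11:69651235-69651424, and CDC14A held one of 19 fragments 7.27 kb from an end at chr1:100352272-100352481, beside an inner RefSeq start. CDC20, marked in HD, had a Ctrl peak of 30 fragments 4.80 kb from its far end. POLD4 had an HD peak of 23 fragments 3.18 kb from an end. Over all 88 members unmarked in Ctrl the median distance to the nearest Ctrl peak was 253 kb, and over the 99 unmarked in HD it was 752 kb to the nearest HD peak.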
